A study of Homo sapiens with 12 samples.

Results

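Cadherins, tight junction genes, EPCAM and vimentin were followed as 10 genes that describe whether a bronchial epithelial sheet keeps its barrier identity. The members were CDH1, CDH2, CDH3, TJP1, OCLN, CLDN1, CLDN4, CLDN7, EPCAM and VIM, and they were found as all probes that the platform annotation names with 1 of these symbols. That gave 15 probes of the 47322 on the array. The scanner software gives each probe a detection p against negative controls, and 12 of the 15 passed a filter that asked for values under 0.01 throughout 1 group or more. The brightest kept probe stood for its gene, so 9 of the 10 members were among the 10532 genes tested, and OCLN was not.

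Total RNA of 16HBE, an immortalised line from the lining of the human airway, was measured on 12 Illumina bead arrays in 4 groups of 3. Every culture carried the retroviral vector pQCXIP by stable infection. Control cells held the empty vector and received DMSO for 4 days, another group with the empty vector received the MEK inhibitor GSK1120212 at 500 nM for 4 days, and the third received the ERK inhibitor SCH772984 at 1 µM for 4 days. The fourth group carried pQCXIP with dominant-negative Ras, labelled DN Ras N17, and its labels name neither a solvent nor a treatment time. The labels do not say whether the infected cells were pools or clones, or which Ras gene the insert came from. The 3 samples of a group came from independent experiments on this 1 line, so p-values measure the spread between experiments. In comparisons with DN Ras, the insert, the infection that brought it in and any difference in solvent or time cannot be told apart.

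Epithelial cells are held together by adherens junctions, in which classical cadherins bind their like on the next cell, and by tight junctions nearer the apical surface, in which claudins and occludin are strung on scaffold proteins such as ZO-1. Epithelial cells typically carry E-cadherin, P-cadherin, claudins and EPCAM, while N-cadherin and vimentin are usual in mesenchymal cells and serve as signs of a shift between these states. MEK phosphorylates ERK, and both act downstream of Ras. The question set by the design was how each form of inhibition differed from the vector control.

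The promoters of CDH2 and CLDN7 are shown because against control these genes had the largest called rise and the largest called fall among the members. RefSeq promoter windows on GRCh38.p14, each running from 250 bases before to 50 after an annotated start, were given for 7 of the 10 members, in 13 windows. None was given for CDH1, CDH3 or EPCAM. Both strands were searched for CAGGTG, the E-box form bound by Snail and ZEB factors, for the AP-1 site TGANTCA and for the ETS core CCGGAA, and matches are in capitals. All 4 windows lie on the minus strand, at chr18:28177081-28177380 and chr18:28036592-28036891 for CDH2 and at chr17:7263164-7263463 and chr17:7262429-7262728 for CLDN7, and are written 5′ to 3′.
CDH2 start 1: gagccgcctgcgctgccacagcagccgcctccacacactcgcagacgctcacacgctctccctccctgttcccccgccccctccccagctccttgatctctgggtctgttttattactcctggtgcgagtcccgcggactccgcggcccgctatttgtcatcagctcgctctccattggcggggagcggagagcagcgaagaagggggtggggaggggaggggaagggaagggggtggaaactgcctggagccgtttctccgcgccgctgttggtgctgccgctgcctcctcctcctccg
CDH2 start 2: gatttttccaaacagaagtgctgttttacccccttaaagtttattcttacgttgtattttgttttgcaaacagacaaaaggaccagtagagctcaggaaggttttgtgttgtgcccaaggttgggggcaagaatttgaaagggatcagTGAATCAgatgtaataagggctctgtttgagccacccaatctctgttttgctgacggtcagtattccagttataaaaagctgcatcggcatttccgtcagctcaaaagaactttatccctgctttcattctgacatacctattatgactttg
CLDN7 start 1: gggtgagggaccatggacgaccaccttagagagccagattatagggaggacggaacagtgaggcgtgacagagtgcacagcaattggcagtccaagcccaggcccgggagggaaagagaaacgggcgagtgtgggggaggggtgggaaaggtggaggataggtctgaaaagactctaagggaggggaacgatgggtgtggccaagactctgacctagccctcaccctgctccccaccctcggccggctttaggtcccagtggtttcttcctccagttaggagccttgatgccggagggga
CLDN7 start 2: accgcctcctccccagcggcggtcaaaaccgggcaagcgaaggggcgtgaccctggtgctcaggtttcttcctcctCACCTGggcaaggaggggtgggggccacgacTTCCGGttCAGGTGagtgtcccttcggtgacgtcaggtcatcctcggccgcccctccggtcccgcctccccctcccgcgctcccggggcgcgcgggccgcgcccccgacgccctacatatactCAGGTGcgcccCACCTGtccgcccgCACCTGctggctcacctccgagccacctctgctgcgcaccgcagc

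The window at the second CLDN7 start held 5 E-boxes and 1 ETS core, and the window at its first start held none of the 3 motifs. Windows with at least 5 E-boxes made up 0.094% of the 35116 windows in the table (33 windows), while 20.6% held at least 1. That cut of 5 was set by the count of this CLDN7 window itself, so the share is a description and not a test. The second CDH2 window held 1 AP-1 site, a motif present in 7.71% of all windows, and the first held none of the 3. E-boxes also occurred in windows of TJP1 and OCLN, and the CLDN4 window held 2 AP-1 sites. The ETS core, present in 17.2% of all windows, occurred at no other member. The windows of CLDN1 and VIM held no match. These matches describe the letters only, and no binding was measured.

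The arrays were alike in depth, with 16825 to 18295 probes detected and a median of 21 to 22 beads per probe. DN Ras replicate 3 differed most from its companions: 85 genes there lay outside the range of replicates 1 and 2 by 2-fold or more, where no other array had more than 22 such genes. Calls of members that change without it are given with and without it. All 9 epithelial markers on the array (keratins KRT8, KRT18, KRT19 and KRT7, the sodium channel subunit SCNN1A, and ELF3, ESRP1, DSP and JUP) were detected on every array, while the secretory marker SCGB1A1, the ciliated marker FOXJ1, the leukocyte marker PTPRC, the endothelial markers PECAM1 and VWF and the fibroblast markers COL3A1, DCN and PDGFRA were detected on none. Other members of those marker lists were seen: CD14, CD68 and ITGB2 of the leukocyte list and COL1A1 of the fibroblast list were detected on all 3 arrays of every group, and the endothelial gene ESAM and the fibroblast gene LUM on 1 to 3 arrays of each group. The summed normalized intensity of the epithelial markers was 10060 to 11740 in control, 7630 to 8282 with the MEK inhibitor, 8972 to 10860 with the ERK inhibitor and 9385 to 9737 with DN Ras. HRAS, the Ras gene whose probe was measured, was 0.26 ± 0.133 (SE, log2) above control in the DN Ras group, which did not pass the test (limma, adjusted p = 0.2263). The array thus gives no check of the insert, whose gene and sequence the labels do not state.

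Values of a probe are given as log2 normalized intensity, in the order of replicates 1, 2 and 3. Changes are differences of group means on that log2 scale, tested with limma across all 10532 genes with Benjamini-Hochberg adjustment and a threshold of 0.05, and called when they passed. In RNA of whole cultures, fewer cells of a kind and less RNA per cell cannot be told apart.

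With the MEK inhibitor, 2 of the 9 tested members were lower than control, CDH3 and CLDN7, and none was higher. Over all genes 16.0% were called in this comparison, 7.11% higher and 8.86% lower. With the ERK inhibitor 2 members were higher, CDH1 and CDH2, and none was lower, where 11.4% of all genes were called, 5.92% higher and 5.48% lower. With DN Ras 1 member was lower, CLDN4, where 12.3% of all genes were called, 5.81% higher and 6.45% lower. Groups that did not overlap with control were found for 4 of 9 members with the MEK inhibitor, 3 with the ERK inhibitor and 3 with DN Ras, where 37.7%, 33.8% and 30.6% of all genes did not overlap. The median change of the 9 members was -0.48 with the MEK inhibitor, -0.01 with the ERK inhibitor and -0.29 with DN Ras, beside medians of 0.01, -0.01 and 0.01 over all genes. These 3 comparisons share the control arrays. A moderated F-test found that CDH1, CDH2, CDH3, CLDN1 and CLDN7 differed among the 4 groups, 5 of 9 where 25.5% of all genes did. Leaving out single arrays moved these counts by over 1.5 times: the members called with the MEK inhibitor were 4 without DN Ras replicate 3 and 1 without control replicate 1 or MEK inhibitor replicate 2 or 3, and the F-test passed 3 without MEK inhibitor replicate 2 or 3. These counts stand without the shares of all genes called in the same fits, so they are not results about the members. Losses of the DN Ras call are given with CLDN4.

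**Figure D1:**
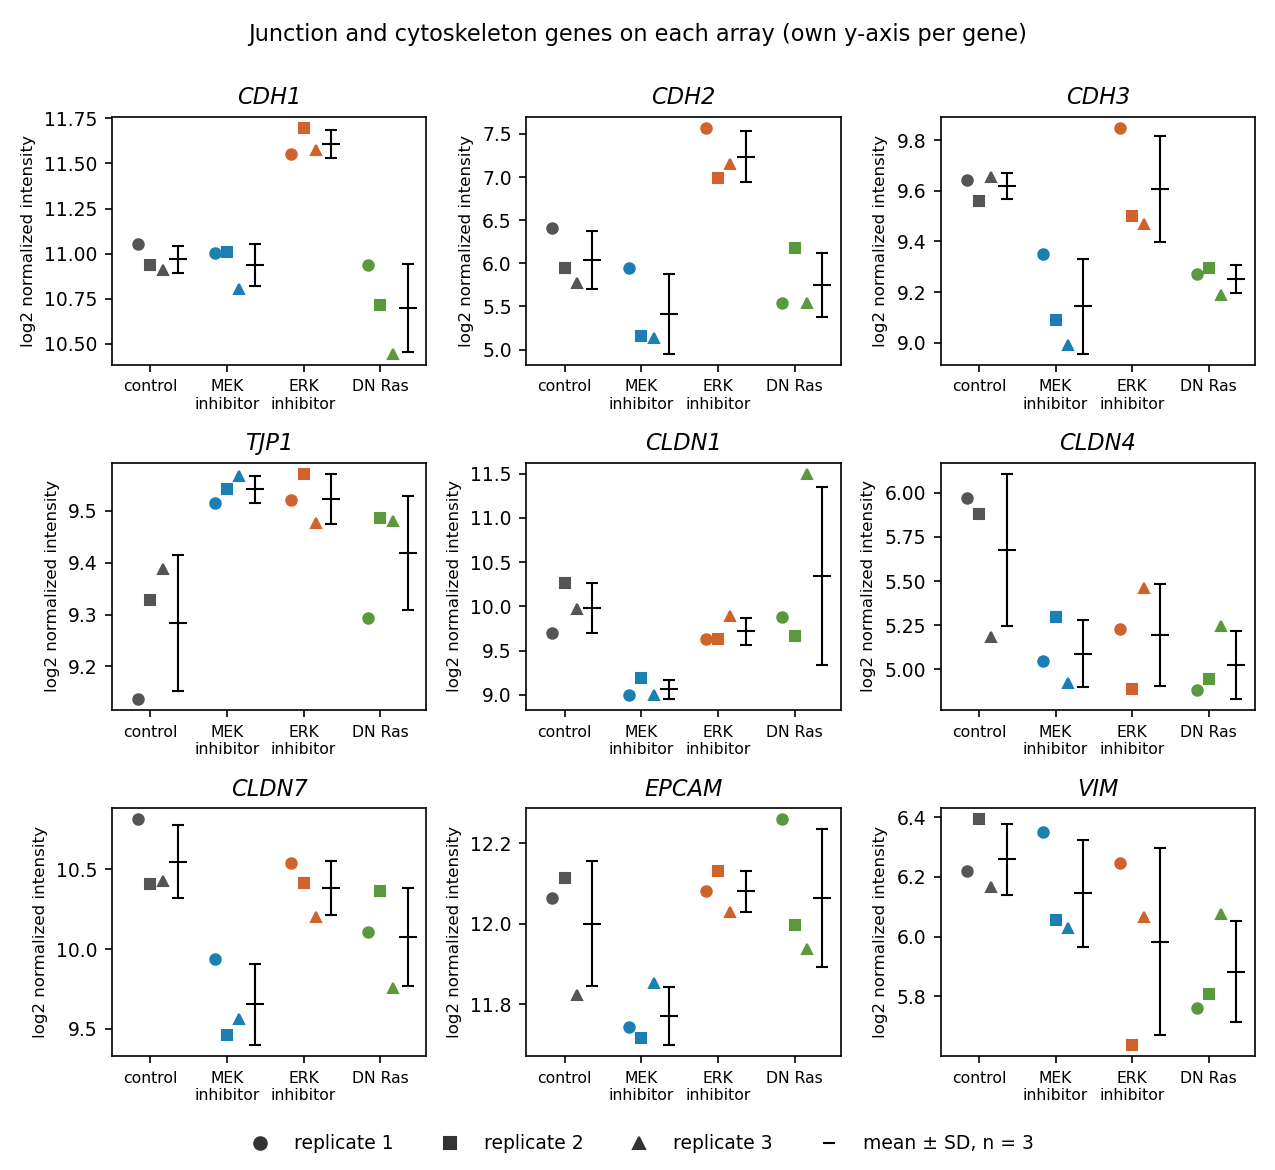
Log2 normalized intensity of the 9 tested genes on each of the 12 arrays, with marker shape for the replicate and black bars for the group mean ± SD (n = 3); each panel has its own axis. The ERK inhibitor arrays of CDH1 and CDH2 lie above all others, the MEK inhibitor arrays of CLDN7 and CLDN1 lie below all control arrays, and the third DN Ras array of CLDN1 stands alone at 11.50.

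CDH1 encodes E-cadherin, the main adhesion molecule of epithelial adherens junctions, and it rose with the ERK inhibitor. Its values were 11.05, 10.94 and 10.91 in control and 11.55, 11.70 and 11.57 with the ERK inhibitor. All 3 ERK inhibitor arrays were above every other array. The change was 0.64 ± 0.129 (SE), a 1.56-fold rise (limma, adjusted p = 0.00472). With the MEK inhibitor the values ran from 10.80 to 11.01, which overlapped control, and the change of -0.03 had a 95% confidence interval of -0.30 to 0.24 (limma, adjusted p = 0.9117). With DN Ras they were 10.93, 10.71 and 10.44, and the change of -0.27 did not pass (limma, adjusted p = 0.1894). The lowest of them was the third DN Ras array, and the range of that group touched the control values.

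CDH2 encodes N-cadherin, which is typical of neural and mesenchymal cells. Its values were 6.42, 5.94 and 5.77 in control and 7.57, 6.99 and 7.15 with the ERK inhibitor. The ERK inhibitor arrays were again above every other array. The rise was 1.19 ± 0.237 (SE), or 2.29-fold (limma, adjusted p = 0.004314), so the E-cadherin and N-cadherin transcripts rose in the same group. On the deposited scale, before background correction, CDH2 read 126 to 143 in control and 217 to 282 with the ERK inhibitor. The MEK inhibitor arrays gave 5.95, 5.16 and 5.14 and the DN Ras arrays 5.54, 6.17 and 5.53. Both groups overlapped control, and neither change passed (-0.63, adjusted p = 0.08729, and -0.29, adjusted p = 0.4682, both limma). The probe was detected on all 12 arrays.

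CDH3 encodes P-cadherin, a cadherin of basal epithelial cells. It read 9.64, 9.56 and 9.65 in control and 9.35, 9.09 and 8.99 with the MEK inhibitor, and these groups did not overlap. The fall was -0.48 ± 0.128 (SE), or 1.39-fold (limma, adjusted p = 0.01867). The call was lost without control replicate 1 (adjusted p = 0.06424), control replicate 3 (0.06225), MEK inhibitor replicate 2 (0.07315) or MEK inhibitor replicate 3 (0.09023), while the change stayed between -0.58 and -0.40 over all 12 arrays left out in turn. The DN Ras values of 9.27, 9.29 and 9.19 also lay below all control values, but that change of -0.37 did not pass (limma, adjusted p = 0.07177). The ERK inhibitor values of 9.85, 9.50 and 9.47 lay on both sides of control (change -0.01, limma, adjusted p = 0.9606).

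TJP1 encodes ZO-1, the scaffold that ties tight junction strands to actin. Its brighter probe read 9.14, 9.33 and 9.39 in control, 9.52, 9.54 and 9.57 with the MEK inhibitor, 9.52, 9.57 and 9.48 with the ERK inhibitor and 9.29, 9.49 and 9.48 with DN Ras. Every inhibitor-treated array lay above every control array, and the DN Ras arrays overlapped control. No change passed: 0.26 with the MEK inhibitor (limma, adjusted p = 0.1277), 0.24 with the ERK inhibitor (0.1773) and 0.14 with DN Ras (0.4674). The other TJP1 probe gave 0.31, 0.41 and 0.11 for the same comparisons, and none passed among the 17099 kept probes. OCLN encodes occludin, a membrane protein of the tight junction strand. Both of its probes were detected on 0 of the 12 arrays, with detection p-values from 0.0442 to 0.971 and intensities from 75 to 90.3, so no comparison was made for it.

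CLDN7 encodes claudin-7, which lies along the side membranes as well as in tight junctions, and among the called changes against control it had the largest fall of the members. It read 10.81, 10.41 and 10.43 in control and 9.94, 9.46 and 9.56 with the MEK inhibitor. No MEK inhibitor array reached the control range. The fall was -0.90 ± 0.173 (SE), or 1.86-fold (limma, adjusted p = 0.002083), and it passed with each of the 12 arrays left out in turn. In deposited intensity this was 1475 to 1809 in control and 658 to 947 with the MEK inhibitor. With DN Ras the values of 10.10, 10.37 and 9.76 lay below all control values, and the change of -0.47 did not pass (limma, adjusted p = 0.08558). With the ERK inhibitor they were 10.54, 10.41 and 10.20, overlapping control (change -0.16, adjusted p = 0.5944). The second start shown above holds the E-boxes, and the array does not tell transcripts of the 2 starts apart.

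CLDN1 encodes claudin-1, a barrier-forming claudin of airway and skin. It read 9.70, 10.27 and 9.97 in control and from 8.99 to 9.19 with the MEK inhibitor. These groups did not overlap, and the change of -0.92 ± 0.325 (SE) missed the threshold in the fit of all arrays (limma, adjusted p = 0.06778). Without DN Ras replicate 3 it was -0.92 and was called (adjusted p = 0.0002525), as it was without DN Ras replicate 2 (0.03844) and with only control and the MEK inhibitor in the fit (0.0006155). DN Ras gave 9.88, 9.66 and 11.50. DN Ras replicate 3 was above every other array, and the other 2 lay below the control median. It enters the spread that all comparisons of this gene share. The DN Ras change was 0.37 with all arrays (limma, adjusted p = 0.5095) and -0.21 without DN Ras replicate 3 (adjusted p = 0.4579), so its direction rested on that array. The ERK inhibitor arrays read 9.63, 9.63 and 9.89, with a change of -0.26 (limma, adjusted p = 0.6569).

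CLDN4 encodes claudin-4, a claudin that tightens the paracellular path. It read 5.97, 5.88 and 5.18 in control, 4.89, 4.94 and 5.25 with DN Ras, 5.05, 5.30 and 4.92 with the MEK inhibitor and 5.23, 4.89 and 5.46 with the ERK inhibitor. Control replicate 3 sat among the inhibited arrays, so each inhibited group overlapped control. The values also lay close to the lowest signal counted as detected, which was 4.71 to 4.88 over the arrays. The DN Ras fall of -0.65 ± 0.196 (SE), or 1.57-fold, was called (limma, adjusted p = 0.04238), and the changes with the MEK inhibitor (-0.59, adjusted p = 0.05381, and 0.0391 without DN Ras replicate 3) and the ERK inhibitor (-0.48, adjusted p = 0.128) were not. Without control replicate 3 both inhibitor changes were called (-0.83, limma, adjusted p = 0.006628, and -0.73, 0.0238). The MEK inhibitor change was also called without ERK inhibitor replicate 2 (0.04986), with only the 2 groups in the fit (0.04068) and among probes detected on all 12 arrays (0.04824). With arrays left out in turn it stayed uncalled in 9 of 12 fits, and the ERK inhibitor change in 11. The DN Ras call was lost with the authors' processed values (adjusted p = 0.06863), without background correction (0.07906), without the filter on dim probes (0.09821), with only the groups compared in the fit (0.08368) and in 7 of the 12 fits that left out an array. Those were the fits without control replicate 1 (0.1757) or 2 (0.1424), MEK inhibitor replicate 1 (0.05211) or 3 (0.05256), ERK inhibitor replicate 1 (0.05044) and DN Ras replicate 1 (0.09409) or 2 (0.1086). Between DN Ras and the MEK inhibitor CLDN4 was not called (-0.06, limma, adjusted p = 0.9071), nor between DN Ras and the ERK inhibitor (-0.17, 0.6345).

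EPCAM encodes the epithelial cell adhesion molecule, a membrane protein that binds claudin-7. Its brightest probe read 12.06, 12.11 and 11.82 in control, 11.74, 11.72 and 11.85 with the MEK inhibitor, 12.08, 12.13 and 12.03 with the ERK inhibitor and from 11.94 to 12.26 with DN Ras. All 3 inhibited groups overlapped control. The changes were -0.23 with the MEK inhibitor (95% confidence interval -0.49 to 0.03), 0.08 with the ERK inhibitor (-0.18 to 0.34) and 0.06 with DN Ras (-0.19 to 0.32), and limma's test passed none. The other EPCAM probes gave -0.25 and -0.11 with the MEK inhibitor, -0.03 and 0.10 with the ERK inhibitor and -0.28 and -0.17 with DN Ras. None of these passed either, and the probes differed in sign with DN Ras.

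VIM encodes vimentin, the intermediate filament of mesenchymal cells. The kept VIM probe read 6.22, 6.39 and 6.16 in control, 6.35, 6.05 and 6.03 with the MEK inhibitor, 6.25, 5.64 and 6.06 with the ERK inhibitor and 5.76, 5.81 and 6.08 with DN Ras. The DN Ras arrays were below all control arrays and the other groups overlapped control. The changes were -0.11 (95% confidence interval -0.44 to 0.22), -0.28 (-0.60 to 0.05) and -0.38 (-0.71 to -0.05), and none passed (limma, adjusted p = 0.6757, 0.2734 and 0.1261). VIM was thus not called higher in any inhibited group, and each change was below 0. The other VIM probe did not pass the detection filter.

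**Figure D2:**
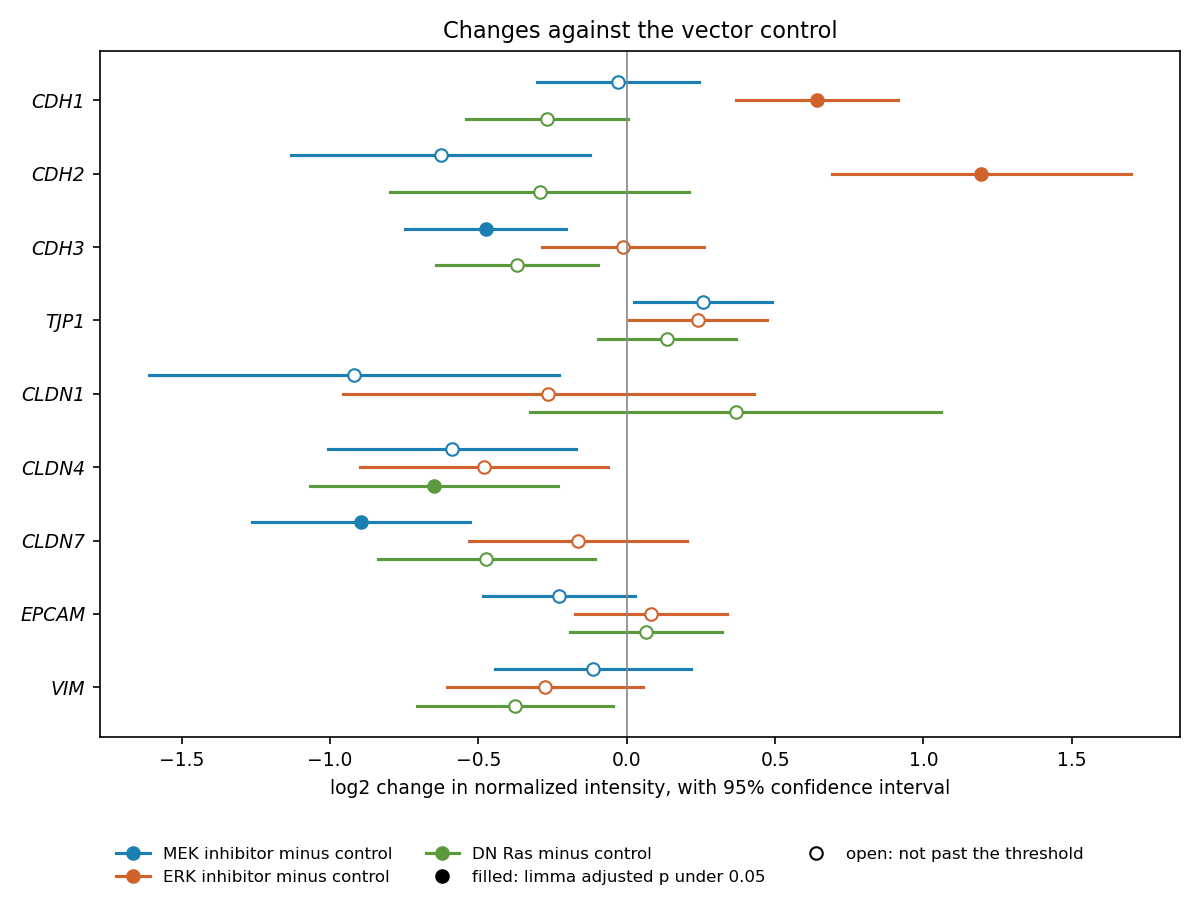
Change of each of the 9 tested genes against the vector control, in log2 normalized intensity, as a point with its 95% confidence interval; filled points passed limma's adjusted threshold. The filled points are CDH1 at 0.64 and CDH2 at 1.19 with the ERK inhibitor, CDH3 at -0.48 and CLDN7 at -0.90 with the MEK inhibitor, and CLDN4 at -0.65 with DN Ras.

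The lower epithelial marker sum with the MEK inhibitor accompanied the falls of CLDN7 and CDH3. KRT18 was -0.97 (limma, adjusted p = 0.0001926), KRT8 -0.77 (0.001882), KRT19 -0.41 (0.04329) and SCNN1A -2.09 (4.526e-07) relative to control in that group, while ELF3 (-0.08), ESRP1 (-0.15), DSP (0.04), JUP (-0.16) and KRT7 (-0.55) did not pass. The summed fibroblast markers were 238.6 to 273.9 with the MEK inhibitor and 176.1 to 193.8 in control, with 2 of 8 detected on all arrays against 1 of 8. With the MEK inhibitor COL1A1 rose by 0.68 (limma, adjusted p = 0.0009485) and LUM by 1.33 (0.004786), with 1 of 3 control arrays of LUM detected. LUM passed the detection filter only through the MEK inhibitor group, so the filter favoured its rise there. COL1A1 also rose by 0.80 with the ERK inhibitor (0.0004569) and by 0.47 with DN Ras (0.0168). COL3A1, DCN, PDGFRA and THY1 were detected on no array. Some epithelial markers were lower in the other groups too. KRT18 changed by -0.60 with the ERK inhibitor (limma, adjusted p = 0.01216) and by -1.02 with DN Ras (0.0002063). SCNN1A changed by -1.43 (3.615e-05) and -1.28 (0.0001244), and KRT8 by -0.48 with DN Ras (0.0435). No other change of an epithelial marker was called in these groups, and the uncalled changes went both ways. With the ERK inhibitor KRT7 (0.22), DSP (0.31) and JUP (0.25) were above control, and KRT8 (-0.43), KRT19 (-0.09), ELF3 (-0.10) and ESRP1 (-0.08) below. With DN Ras ELF3 (0.11), DSP (0.30) and JUP (0.20) were above control, and KRT19 (-0.17), KRT7 (-0.23) and ESRP1 (-0.16) below. Beside the rises of CDH1 and CDH2 with the ERK inhibitor, the basal keratin gene KRT14 was higher by at least 4.93-fold than control, where it was undetected (limma, adjusted p = 4.229e-07). The basal markers KRT5 (0.08) and ITGA6 (-0.13) were not called with the ERK inhibitor, and NGFR and PDPN were detected on no array. With DN Ras KRT14 was at least 1.266-fold higher than control (limma, adjusted p = 0.0447), and KRT5 rose by 0.63 (0.0296). KRT14 passed the detection filter only through the ERK inhibitor and DN Ras groups, so the filter favoured its rises there. ITGA6 changed by -0.97 with the MEK inhibitor (0.001132). The leukocyte marker ITGB2 rose by 0.64 with the ERK inhibitor (limma, adjusted p = 0.01817). The summed leukocyte markers were 729.2 to 760.6 with the ERK inhibitor and 556.1 to 644 in control. Of that list CD14 (-0.35, limma, adjusted p = 0.1858) and CD68 (0.08, 0.7906) were not called with the ERK inhibitor. PTPRC, CD3D, CD3E and ITGAM were detected on none of its arrays. The part of these markers in the results was not tested.

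Direct comparisons between the inhibited groups separated the MEK and ERK inhibitors on the cadherins. Lower with the MEK inhibitor than with the ERK inhibitor were 4 of 9 members, CDH1, CDH2, CDH3 and CLDN7, where 10.2% of all genes were called, 3.52% higher and 6.69% lower. The difference for CDH2 was -1.82 (95% confidence interval -2.32 to -1.32, limma, adjusted p = 0.0001259), and for CDH1 it was -0.67 (-0.94 to -0.40, adjusted p = 0.003255). For CLDN7 it was -0.73 (-1.10 to -0.36, adjusted p = 0.01297) and for CDH3 -0.46 (-0.74 to -0.19, adjusted p = 0.03085). None of these 4 genes overlapped between the 2 groups, nor did CLDN1 and EPCAM, 6 of 9 members where 31.4% of all genes did not overlap. The CDH3 and CLDN7 differences were each lost without MEK inhibitor replicate 2 (adjusted p = 0.1127 and 0.07335), MEK inhibitor replicate 3 (0.133 and 0.06003) or ERK inhibitor replicate 1 (0.1496 and 0.0626). CLDN1 was -0.65 between these groups (limma, adjusted p = 0.2391), and it was called without DN Ras replicate 3 (-0.66, adjusted p = 0.005704). The inhibitors were used at different doses, 1 dose each, so the agents and their doses cannot be told apart.

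DN Ras differed from the ERK inhibitor in 2 of 9 members, CDH1 and CDH2, both lower with DN Ras, where 10.9% of all genes were called, 4.79% higher and 6.09% lower. The arrays of these groups did not overlap for 3 of 9 members, the third being CDH3, where 27.5% of all genes did not overlap. The differences were -0.91 for CDH1 (95% confidence interval -1.18 to -0.64, limma, adjusted p = 0.0004293) and -1.49 for CDH2 (-1.99 to -0.98, adjusted p = 0.001024). Between DN Ras and the MEK inhibitor 1 member of 9 was called, CLDN1, higher with DN Ras, where 4.40% of all genes were called, 2.49% higher and 1.91% lower. For 3 of 9 members, CLDN1, TJP1 and EPCAM, these groups did not overlap, where 21.3% of all genes did not. That difference was 1.29 (95% confidence interval 0.59 to 1.98, limma, adjusted p = 0.03646) and 0.71 without DN Ras replicate 3 (adjusted p = 0.01381). It was lost without control replicate 3 (adjusted p = 0.05302), any of the MEK inhibitor replicates (0.08573, 0.09606 and 0.108) or ERK inhibitor replicate 2 (0.05155). For CDH1, CDH2 and CDH3 the intervals between DN Ras and the MEK inhibitor were -0.51 to 0.03, -0.17 to 0.84 and -0.17 to 0.38, which do not show that these groups are alike.

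**Figure D3:**
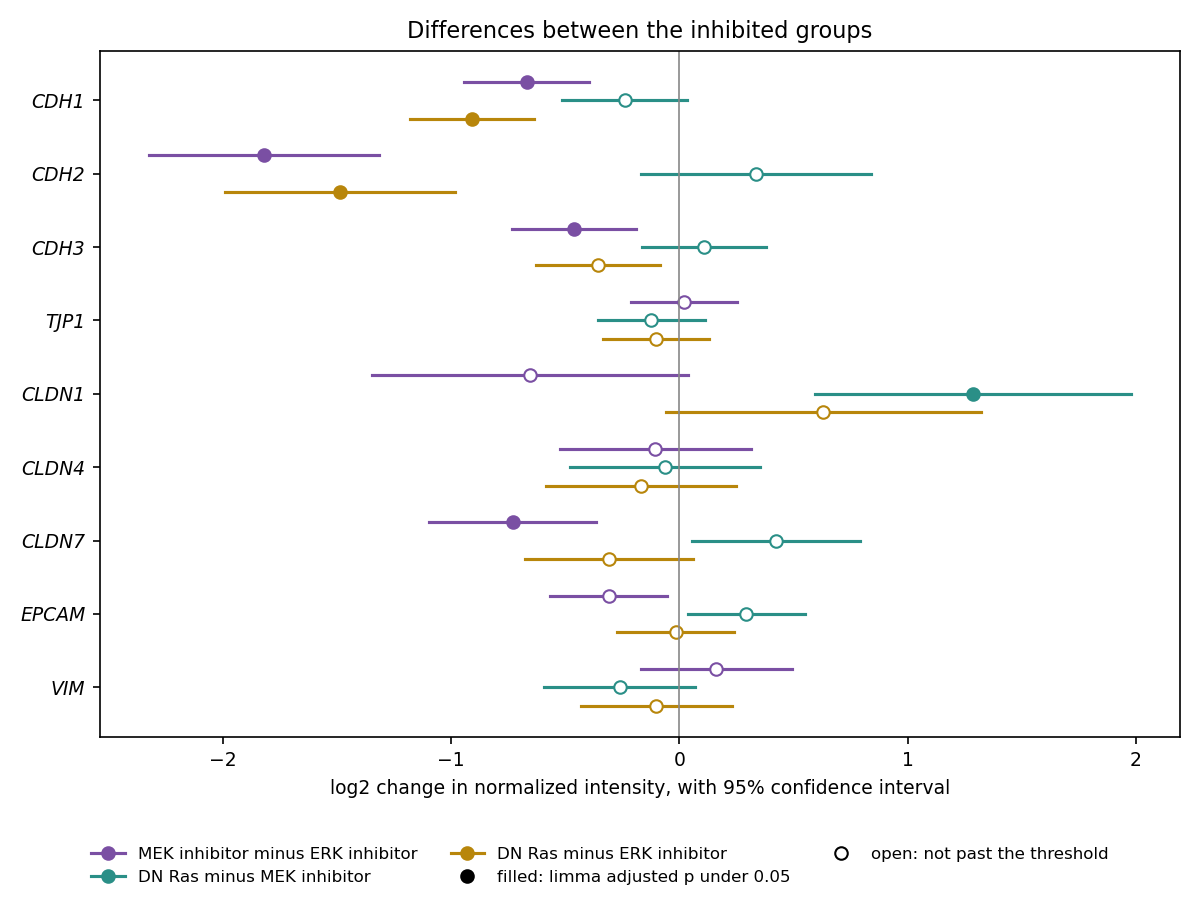
Difference between each pair of inhibited groups for the 9 tested genes, in log2 normalized intensity with 95% confidence intervals; filled points passed limma's adjusted threshold. CDH1 and CDH2 are filled on the left for both comparisons with the ERK inhibitor, and CLDN1 is filled on the right, at 1.29, for DN Ras against the MEK inhibitor.

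Ordered by group mean, CDH1 and CDH2 were highest with the ERK inhibitor, above control by more than their spread. CDH1 then followed in the order control, MEK inhibitor and DN Ras, and CDH2 in the order control, DN Ras and MEK inhibitor, and in neither case did neighbours below the ERK inhibitor differ by limma's test. CDH3 and CLDN7 shared the order control, ERK inhibitor, DN Ras and MEK inhibitor, in which the only called differences were those of the MEK inhibitor from control and from the ERK inhibitor. Over the 12 arrays, which share group structure and normalization, CDH3 and CLDN7 had a Pearson r of 0.877, CDH1 and CDH2 of 0.806, and CDH2 and CDH3 of 0.764. These are descriptions.

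Genes of the same structures were read from lists by role. Beside the counts of this and the following lists stand the shares of all genes called. They were 7.11% higher and 8.86% lower with the MEK inhibitor and 5.92% and 5.48% with the ERK inhibitor. With DN Ras they were 5.81% higher and 6.45% lower. No list was tested as a set. Of 18 further cadherins on the array none passed the detection filter, so no other cadherin was tested. Of 19 tested tight junction genes outside the members, 1 was higher and 3 were lower with the MEK inhibitor, none was higher and 2 were lower with the ERK inhibitor, and none was higher and 2 were lower with DN Ras. Their median changes were -0.08, 0.03 and -0.03. CLDN3, encoding claudin-3, fell in each inhibited group. It read 7.84, 7.87 and 7.70 in control, 6.85, 6.92 and 6.01 with the MEK inhibitor, 6.91, 6.84 and 6.79 with the ERK inhibitor and 6.43, 6.36 and 6.62 with DN Ras. Every inhibited array was below every control array, and the changes were -1.21 (limma, adjusted p = 0.0003004), -0.96 (0.00345) and -1.33 (0.0002226). LSR, a protein of the corners where 3 cells meet, fell by 0.87 with the MEK inhibitor (limma, adjusted p = 0.0003735), and CGNL1, the junction protein paracingulin, rose by 0.89 (adjusted p = 0.0175). SYMPK fell by 0.43 with the MEK inhibitor (limma, adjusted p = 0.04997) and by 0.53 with the ERK inhibitor (0.02438), and CLDN23 fell by 0.43 with DN Ras (0.04152). The SYMPK calls and the CLDN23 call were lost when arrays were scaled to a common median in place of quantile normalization (adjusted p = 0.06769, 0.2843 and 0.0607), and the CLDN23 call also without DN Ras replicate 3 (0.1526).

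Adherens junction plaque and nectin genes had 2 of 12 tested higher and 1 lower with the MEK inhibitor, 2 higher with the ERK inhibitor, and 1 higher and 1 lower with DN Ras. AJUBA, a LIM protein recruited to cadherin complexes, rose in each inhibited group, by 1.01, 1.00 and 0.79 (limma, adjusted p = 0.0004529, 0.0008369 and 0.004462). VCL, the actin linker vinculin, was 0.59 higher with the ERK inhibitor (adjusted p = 0.006557, and 0.05099 with median scaling) and 0.42 lower with DN Ras (change -0.42, adjusted p = 0.04138, and 0.1292 without DN Ras replicate 3). With the MEK inhibitor NECTIN2 changed by -0.48 (limma, adjusted p = 0.04382, and 0.05911 with the authors' values). NECTIN3 changed by 0.62 (adjusted p = 0.02826, and 0.09887 with median scaling), with 1 of 3 control arrays detected.

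Desmosomes are the spot-like junctions that anchor keratin filaments. Of 10 tested desmosome genes 3 were higher with the MEK inhibitor, 1 with the ERK inhibitor and 2 with DN Ras, and none was lower. Their median changes were 0.06, 0.21 and 0.30, beside 0.01, -0.01 and 0.01 over all genes. PKP1, a plaque protein, rose by 0.92 with the ERK inhibitor (limma, adjusted p = 5.173e-05) and by 0.42 with the MEK inhibitor (0.01623). DSC3, a desmosomal cadherin, rose by 0.54 with the MEK inhibitor (0.009007) and by 0.50 with DN Ras (0.02003), DSG3 by 0.49 with DN Ras (0.0331) and PKP2 by 0.35 with the MEK inhibitor (0.04739). With median scaling the counts with the MEK inhibitor and DN Ras were 0, and the PKP1 call with the ERK inhibitor held. The DSC3 call with DN Ras was also lost without DN Ras replicate 3 (adjusted p = 0.07203).

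Of 9 tested polarity genes 1 was lower with the MEK inhibitor (PARD6A, -0.48, limma, adjusted p = 0.02211), none was called with the ERK inhibitor and 1 was lower with DN Ras (PARD6B, -0.66, adjusted p = 0.02714, detected on 1 of 3 DN Ras arrays, and 0.09909 without DN Ras replicate 3). Of 5 tested partners of EPCAM and membrane proteases 3 were lower with the MEK inhibitor and 1 in each other group. CD44, a hyaluronan receptor that associates with EPCAM, read 10.07, 9.38 and 9.53 in control and 7.60, 7.41 and 7.60 with the MEK inhibitor. The groups lay far apart, and the change was -2.13 (limma, adjusted p = 6.655e-06), against -0.82 with the ERK inhibitor (0.02536, and 0.05459 with the authors' values) and -0.84 with DN Ras (0.0219, and 0.07936 without DN Ras replicate 3). ST14, the protease matriptase, changed by -0.55 (adjusted p = 0.02251) and the tetraspanin CD9 by -0.44 (0.01434) with the MEK inhibitor. Among 4 tested filament genes related to VIM, PRPH rose by 0.77 with the MEK inhibitor (limma, adjusted p = 0.008385), INA by 0.67 with the ERK inhibitor (0.01459) and SYNM by 0.45 with DN Ras (0.02544), while NEFH fell by 0.52 with DN Ras (0.0374). The SYNM and NEFH calls were lost with median scaling (adjusted p = 0.2983 and 0.09162). Without DN Ras replicate 3 the filament genes were 3 higher and 0 lower with DN Ras, with PRPH (0.60, adjusted p = 0.03171) and INA (0.60, 0.0268) gained and NEFH lost (0.1161). In the same setting the genes lower with DN Ras went from 2 to 1 in the tight junction list and from 1 to 0 in the adherens plaque, polarity and EPCAM partner lists, and those higher went from 2 to 1 in the desmosome list.

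Of 12 transcription factors known to repress CDH1, only SNAI2, TWIST1 and TCF3 passed the detection filter, and SNAI1, ZEB1 and ZEB2 were among those that did not. SNAI2, encoding the E-box binding factor Slug, read 6.65, 7.12 and 7.19 in control, 8.28, 8.80 and 8.69 with the MEK inhibitor, 7.48, 8.47 and 8.30 with the ERK inhibitor and 7.97, 7.77 and 8.52 with DN Ras. Every inhibited array was above every control array. The rises were 1.60 (limma, adjusted p = 0.0003132), 1.10 (0.009328) and 1.10 (0.0082). CDH1 was called higher with the ERK inhibitor and was not called with the MEK inhibitor or DN Ras. A link between SNAI2 and CDH1 was not tested. TWIST1 rose by 0.74 with the MEK inhibitor (limma, adjusted p = 0.002353), with 2 of 3 control arrays detected, and TCF3 by 0.63 with DN Ras (0.002558, and 0.1017 with median scaling).

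Regulators of the epithelial state went both ways: of 9 tested, 2 were higher and 3 lower with the MEK inhibitor, 2 higher and 1 lower with the ERK inhibitor, and 2 higher and 1 lower with DN Ras. GRHL3, a grainyhead factor of barrier formation, was detected on no array with the MEK inhibitor or DN Ras and was there at least 2.19-fold and at least 2.29-fold lower than control (limma, adjusted p = 1.553e-06 and 7.343e-06). With the ERK inhibitor it changed by -0.96 (adjusted p = 0.0004304). For these bounds a dim array counted at its own GRHL3 value or at its lowest detected signal, whichever was higher. OVOL2, a repressor of mesenchymal genes, rose by 1.18, 0.76 and 0.98 in the MEK inhibitor, ERK inhibitor and DN Ras groups (limma, adjusted p = 1.598e-05, 0.001655 and 0.0001776). KLF4, an epithelial differentiation factor, read 8.40, 8.02 and 8.19 in control, 7.31, 7.07 and 7.17 with the MEK inhibitor and 9.09, 9.09 and 8.80 with the ERK inhibitor. None of these 3 groups overlapped, and KLF4 changed by -1.02 with the MEK inhibitor (limma, adjusted p = 0.0005543) and 0.79 with the ERK inhibitor (0.006611). GRHL2 rose by 0.54 with DN Ras (limma, adjusted p = 0.01862) and OVOL1 changed by -0.50 with the MEK inhibitor (0.03957), and both calls were lost with median scaling (0.1798 and 0.07042).

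Of 9 tested mesenchymal genes, 4 were higher and 2 lower with the MEK inhibitor, 4 higher with the ERK inhibitor, and 3 higher and 2 lower with DN Ras, with median changes of 0.64, 0.37 and 0.29. COL5A1, a fibrillar collagen chain, rose by 1.34, 1.32 and 0.91 (limma, adjusted p = 7.533e-06, 1.762e-05 and 0.0006697). TAGLN, an actin-binding protein of contractile cells, rose by 1.65 with the MEK inhibitor (adjusted p = 6.767e-06) and by 1.73 with the ERK inhibitor (8.812e-06). With DN Ras TAGLN changed by 0.29 (limma, adjusted p = 0.3014), and by 0.55 without DN Ras replicate 3, which was called (0.01018). The matrix protein gene TNC changed by -2.39 with the MEK inhibitor (limma, adjusted p = 3.441e-07) and by -1.49 with DN Ras (8.696e-05). FN1, encoding fibronectin, rose by 0.78 with the ERK inhibitor (0.04586, and 0.1467 with the authors' values) and by 1.08 with DN Ras (0.007488), with 1 of 3 control arrays detected. With the MEK inhibitor FN1 changed by 0.64 (limma, adjusted p = 0.08159), and it was called without DN Ras replicate 3 (0.005619). SPARC was 0.49 higher with DN Ras (limma, adjusted p = 0.04136), a call lost without DN Ras replicate 3 (0.1254). The fibronectin receptor subunit gene ITGA5 rose by 1.02 with the ERK inhibitor (limma, adjusted p = 0.008016), and ACTA2 changed by -0.54 with DN Ras (0.02765). POSTN, whose control arrays were all below detection, was with the MEK inhibitor at least 1.34-fold higher (limma, adjusted p = 0.0002806, and 0.0994 with the authors' values). POSTN, FN1, NECTIN3 and TWIST1 were not detected on all control arrays. They passed the filter only through inhibited groups, so the filter favoured rises over control. VIM, as given above, was not called in any of these comparisons.

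**Figure D4:**
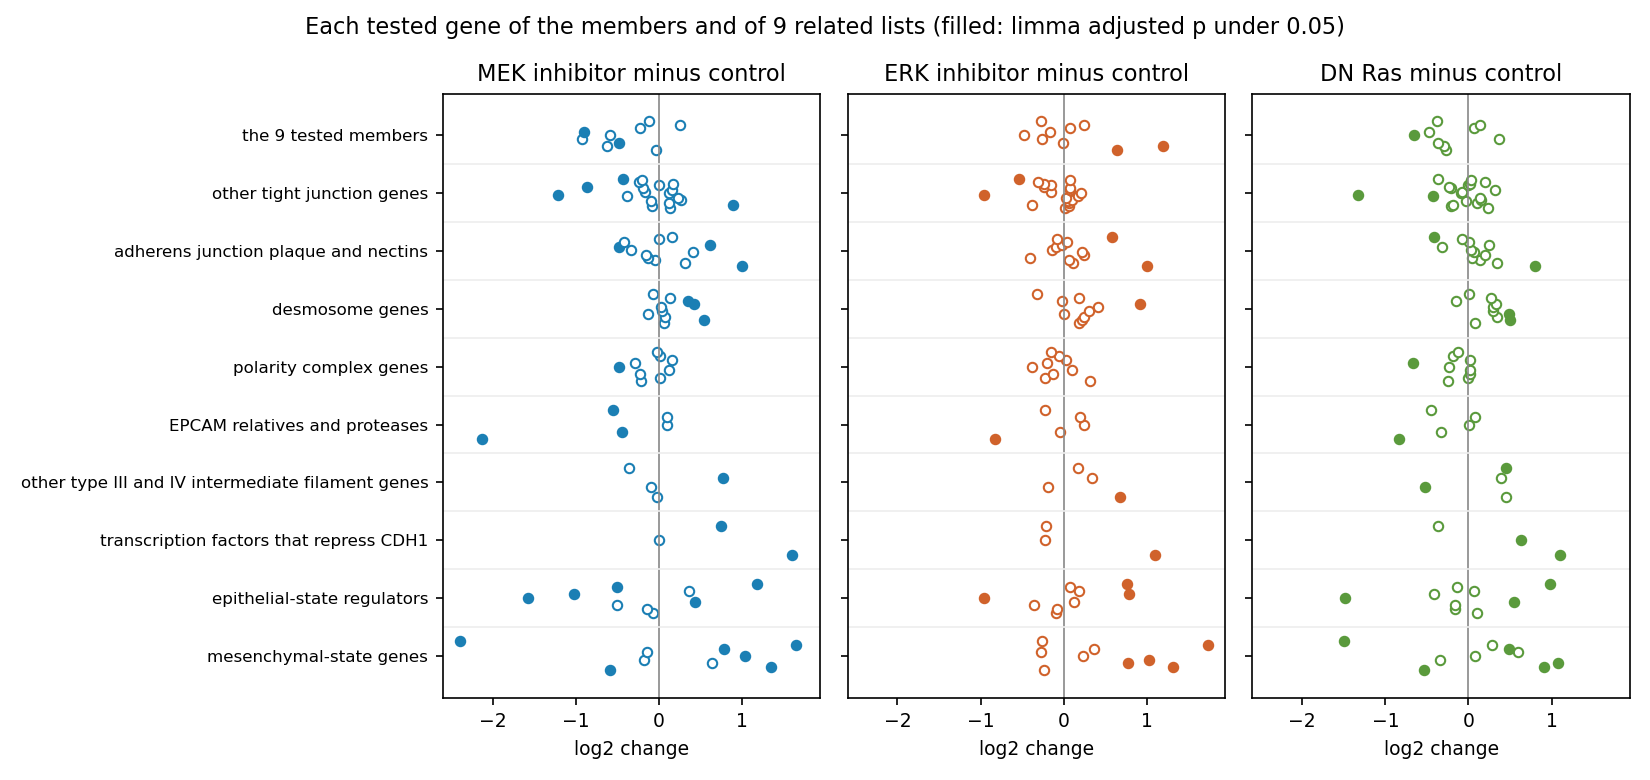
Log2 change against control of the 9 tested members and of each tested gene in 9 related lists, 1 panel per inhibited group; filled points passed limma's adjusted threshold across all genes. CD44 at -2.13 and TNC at -2.39 lie farthest left with the MEK inhibitor, SNAI2 lies right of 1 in every panel, and most points of the tight junction and polarity lists are open and near 0. Most desmosome points are open, with medians of 0.06 with the MEK inhibitor, 0.21 with the ERK inhibitor and 0.30 with DN Ras.

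The genes whose values followed the members most closely were taken over the 12 arrays by Pearson r, as a description. For CDH1 they were PTGER4 (r = 0.964) and ITPR3 (0.939), and for CDH2 HHAT (0.979) and C1QTNF1 (0.963). PTGER4, a prostaglandin E2 receptor gene, was 1.25 above control with the ERK inhibitor (limma, adjusted p = 0.0003436), and C1QTNF1 was 1.16 above control (0.002057). For CDH3 they were CCND3 (0.976) and CCL20 (0.955), and CCL20, a chemokine gene, changed by -1.33 with the MEK inhibitor (limma, adjusted p = 0.0003365). For CLDN7 they were EMP3 (0.964) and TMEM154 (0.959). For CLDN1 they were GUSB (0.849) and RHOT2 (0.845).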

How the data were processed

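Per the labels' protocols, biotinylated cRNA was prepared for Illumina arrays, 1 per sample. The deposited table gives, per the file headers, each probe's mean bead intensity, bead counts, bead standard error and detection p-value on every array. Per the submitters' processing notes, GenomeStudio was used; no version is named. The authors also deposited processed intensity values for 47317 probes, on a linear scale with values below 0 and shared quantiles, with column medians of 4.55 to 4.57; how background was removed is not stated. These served as an alternative after a floor of 16 and log2.

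The deposited intensities were background corrected from the detection p-values, given an offset of 16, quantile normalized and taken to log2 with neqc of limma 3.58.1 (R 4.3.3). Quantile normalization would remove a shift shared by most genes. lmFit and eBayes were fitted over 4 group means with all 12 arrays. Symbols came from the platform annotation, which can be old: 30112 probes had 1 symbol and 8 had several and were not named. Member probes held 6 to 37 beads (median 22), and the bead standard error was 2.8% to 12.9% of the intensity of those kept; the number of arrays limits the precision. The fit was tested on simulated data. Figures were drawn with matplotlib 3.10.9 (Python 3.11.15).

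The members and lists were chosen with earlier results of these data known. Named were all members with their probes, up to 4 genes with the smallest adjusted p per list and comparison with control among those called, and the 2 genes most like each member that passed the F-test. KRT8, KRT18, KRT19, KRT7, SCNN1A and the other markers are named as markers. Alternatives were median scaling, no background correction, the authors' values, other probe filters, other rules for several probes, fits of only 2 groups, a replicate block and leaving out each array.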

Additional observations from a re-analysis of the deposited data

How the results depend on the processing

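The called changes of CDH1 and CDH2 with the ERK inhibitor and of CLDN7 with the MEK inhibitor kept their direction and passed with every array left out. Scaling arrays to a common median shifted the median of all genes by -0.12 with the MEK inhibitor, 0.12 with the ERK inhibitor and -0.10 with DN Ras. Members called were then 5 for the MEK inhibitor (CDH2, CLDN1 and CLDN4 added, adjusted p = 0.01333, 0.0008642 and 0.02563), 2 for DN Ras (CLDN7 added, 0.03187), 5 between the MEK and ERK inhibitors (CLDN1 added, 0.004516) and 4 for DN Ras against the ERK inhibitor (CDH3 and CLDN7 added, 0.02023 and 0.04277, limma). Among uncalled changes that setting turned CDH3 with the ERK inhibitor to 0.12, TJP1 with DN Ras to -0.022, and, between the MEK and ERK inhibitors, TJP1 to -0.26 and VIM to -0.11. Averaging a gene's probes turned EPCAM with DN Ras to -0.13 and TJP1 between the inhibitors to -0.041. DN Ras against control and DN Ras against the MEK inhibitor had 0 called members each with the authors' values, with no filter on dim probes and with only 2 groups in the fit; by the limma test above, 4 and 3 members had an unadjusted p under 0.05 there. With only 2 groups in the fit the MEK inhibitor had 4. The cause of these differences was not tested. All shares of genes called given above belong to the quantile-normalized fit of 4 group means over all 12 arrays. Counts of called members in every other setting stand without such a share, so they are not results about the members. Leaving out each array gave 1 to 4 called members for the MEK inhibitor, 2 to 3 for the ERK inhibitor, 0 to 1 for DN Ras, 2 to 5 between the inhibitors, 0 to 1 for DN Ras against the MEK inhibitor, 2 in every case for DN Ras against the ERK inhibitor, and 3 to 6 by the F-test. Uncalled changes crossed 0 in that way for CDH1 with the MEK inhibitor (-0.063 to 0.038), for CDH3 (-0.133 to 0.056) and EPCAM (-0.0085 to 0.139) with the ERK inhibitor, for CLDN1 (-0.209 to 0.708) and EPCAM (-0.034 to 0.124) with DN Ras, for TJP1 (-0.0040 to 0.044), CLDN4 (-0.256 to 0.028) and VIM (-0.011 to 0.293) between the inhibitors, for CLDN4 (-0.175 to 0.042) between DN Ras and the MEK inhibitor, and for EPCAM (-0.115 to 0.046) and VIM (-0.273 to 0.031) between DN Ras and the ERK inhibitor. The deviations of same-numbered arrays of different groups had r from -0.19 to 0.33 over 18 pairs (median 0.0965, 9 above 0.1). Arrays with different numbers had r from -0.27 to 0.225 over 36 pairs (median -0.0593, 7 above 0.1). Of the 12 arrays, 7 were closest to one of their own number. Same-numbered arrays thus deviated together more often, but not in every pair, and the main fit had no term for the number. With the replicate block 4 members were called for the MEK inhibitor (CDH2 and CLDN1 added, adjusted p = 0.04559 and 0.04488) and 2 for DN Ras (CLDN7 added, 0.04321). Over all settings 1056 of 1134 changes of members kept direction and side of the threshold, 30 lost and 24 gained a call, and 24 changed sign, 18 of these with an array left out. Counts of the related lists under 3 other scalings and without DN Ras replicate 3 were added after seeing the data. Signal near background limits CDH2, CLDN4 and VIM.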
